A study of Mus musculus with 12 samples.

Results

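The genes described are those of the pre-B-cell receptor and of V(D)J recombination in mouse bone marrow: Vpreb1, Vpreb2, Vpreb3, Igll1, Rag1, Rag2, Dntt and Il7r, with Myl4, a myosin light chain gene, described beside them. They were chosen by gene symbol, and 9 of 9 were found among the 24421 entries of the deposited expression table. All passed the filter on low values that was applied here. The samples are whole bone marrow of C57BL/6 mice, 3 in each of 4 groups, and RNA was sequenced from each. Young-CON are young controls, Aged-CON aged controls, and Young-TBI and Aged-TBI are young and aged mice with traumatic brain injury whose marrow was taken 3 days after the injury. All groups share the strain, and no allele or drug is named in the labels. The sources used here do not give ages in numbers, the method of injury or any sham procedure of the controls. The comparisons ask how injury alters marrow transcripts in young and in aged mice, and how the age groups differ with and without injury.

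B cells are made in the marrow from progenitors that rearrange the immunoglobulin heavy chain gene first. The RAG1 and RAG2 proteins together form the recombinase that cuts at the gene segments, and the polymerase encoded by Dntt (TdT) adds untemplated bases at the joints. A finished heavy chain is then tested at the surface with a surrogate light chain made of the VpreB and λ5 proteins, the products of Vpreb1 or Vpreb2 and of Igll1. This pre-B-cell receptor signals for division and for light chain rearrangement, after which its genes are shut off. Interleukin-7 from marrow stroma sustains these early cells through the receptor chain encoded by Il7r. Vpreb3 encodes a protein that binds newly made immunoglobulin chains inside B-lineage cells. Myl4 encodes an essential light chain of myosin known mainly from the atrium and embryonic muscle.

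Vpreb1 (chr16:16868403-16870843, minus strand), Igll1 (chr16:16860671-16863985, minus strand) and Vpreb2 (chr16:17980428-17981273, plus strand) lie on chromosome 16. Rag1 (chr2:101638282-101649501, minus strand) and Rag2 (chr2:101624718-101632529, plus strand) are neighbours on chromosome 2. Vpreb3 lies at chr10:75943057-75949657, Dntt at chr19:41029275-41059525 and Myl4 at chr11:104550663-104595753, each on the plus strand, and Il7r at chr15:9505788-9530176 on the minus strand. All coordinates are of protein-coding genes in GENCODE M21 on GRCm38.

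Promoter windows were read from RefSeq on GRCm38.p6 for 9 of 9 genes, each of 300 bases around the annotated start. The E-box letters CAGGTG, or CACCTG on the other strand, are those bound by E proteins such as E2A, regulators of early B-cell genes. They stood in the windows of Vpreb1, Vpreb2, Igll1 and Rag1, 4 of 9 genes, and in 20.2% of 32851 windows of the genome. The letters CCCNNGGG, of the kind bound by the B-lineage factor EBF1, read the same on both strands and cannot overlap the E-box letters. They stood in 1 of 9 windows, that of Igll1, and in 13.7% of all windows. The 4 windows with E-box letters are printed, to show where the letters lie and how alike the Vpreb1 and Vpreb2 copies are, with the E-box letters in capitals and each read 5′ to 3′ on the strand of its gene. They cover chr16:16869206-16869505 (Vpreb1, minus strand), chr16:17980315-17980614 (Vpreb2, plus strand), chr16:16863936-16864235 (Igll1, minus strand) and chr2:101649483-101649782 (Rag1, minus strand).
Vpreb1: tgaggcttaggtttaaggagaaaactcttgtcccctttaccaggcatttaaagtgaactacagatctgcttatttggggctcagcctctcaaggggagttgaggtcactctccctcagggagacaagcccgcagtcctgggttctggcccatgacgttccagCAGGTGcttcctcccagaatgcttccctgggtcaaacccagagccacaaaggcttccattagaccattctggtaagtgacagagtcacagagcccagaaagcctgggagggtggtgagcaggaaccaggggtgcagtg
Vpreb2: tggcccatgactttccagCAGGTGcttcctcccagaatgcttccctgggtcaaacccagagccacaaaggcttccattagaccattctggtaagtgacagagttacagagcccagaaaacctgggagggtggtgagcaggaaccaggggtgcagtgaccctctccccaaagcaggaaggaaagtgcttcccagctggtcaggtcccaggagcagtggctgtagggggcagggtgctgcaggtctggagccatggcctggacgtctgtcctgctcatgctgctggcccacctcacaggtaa
Igll1: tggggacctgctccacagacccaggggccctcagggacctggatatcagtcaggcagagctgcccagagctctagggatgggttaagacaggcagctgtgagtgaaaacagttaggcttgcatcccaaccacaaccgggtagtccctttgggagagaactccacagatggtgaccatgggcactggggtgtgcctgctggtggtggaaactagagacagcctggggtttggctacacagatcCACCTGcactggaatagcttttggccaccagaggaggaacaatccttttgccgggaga
Rag1: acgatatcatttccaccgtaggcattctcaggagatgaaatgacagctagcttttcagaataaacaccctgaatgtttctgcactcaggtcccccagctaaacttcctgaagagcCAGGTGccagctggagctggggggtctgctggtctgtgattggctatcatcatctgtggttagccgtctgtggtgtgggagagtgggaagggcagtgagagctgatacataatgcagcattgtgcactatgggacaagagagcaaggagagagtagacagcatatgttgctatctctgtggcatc
The first base of the capitals lies at position -88 from the annotated start in Vpreb1, -232 in Vpreb2, -8 in Igll1 and -135 in Rag1. These starts are those of RefSeq, and in Vpreb1 and Vpreb2 they lie inside the GENCODE spans given above. At the Vpreb2 start the printed window reads atg, so its positions may count from the coding start rather than the transcript start. The windows of Vpreb1 and Vpreb2 align over 156 columns, of which 153 (98.1%) are identical, with position -106 of Vpreb1 on position -250 of Vpreb2. The E-box letters fall within this stretch, so the differing positions follow from where the start of each gene is annotated. A match of letters describes the window and does not show that a factor binds there.

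The transcripts of Vpreb1 and Vpreb2, of 766 and 759 bases, were 96.5% identical. Of 710 stretches of 50 bases in the Vpreb2 transcript, 233 occur unchanged in that of Vpreb1. Fragments could therefore be assigned to either gene, and the values of both are uncertain in that respect. No such stretch was shared by any other pair among Vpreb1, Vpreb2, Vpreb3 and Igll1. Vpreb1 also overlaps the first part of Top3b on the opposite strand, and the gene B230118H07Rik overlaps Rag1 on the same strand and Rag2 on the opposite strand. The sources used here do not say whether the authors' counting used strand. Top3b kept group means between 21.5 and 24.0 FPKM and B230118H07Rik between 2.45 and 3.06 FPKM.

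Values are FPKM, fragments scaled by transcript length and by the mapped fragments of the sample, which can be compared between genes of different length. Fragments recovered from the table numbered 12.3 to 15.9 M per sample. The neutrophil gene S100a8 (17890 to 29353 FPKM), the neutrophil precursor gene Mpo (571 to 1234 FPKM) and the erythroid gene Alas2 (379 to 940 FPKM) were high in every sample, which fits the tissue named in the labels. Summed over the erythroid list, Young-CON 2 stood low (1421 FPKM, against 3016 and 2654 FPKM in its group) and Aged-CON 1 stood high (3275 FPKM, against 1788 and 1700 FPKM). Log2 changes are differences of log2(FPKM + 1) from limma, with standard errors (SE), and rises and falls are named as such where the p adjusted over all 11767 genes tested was under 0.05. The added 1 compresses the changes of genes near or under 1 FPKM, so changes on recovered fragments are given where this matters. In bulk marrow, fewer cells of a type and less RNA per cell cannot be told apart. No label states that each sample is a separate animal, so the spread behind the p-values may be technical.

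The surrogate light chain genes were high in young controls and lowest in aged mice. Vpreb1 stood at 19.4, 21.0 and 31.7 FPKM in the Young-CON samples and at 11.9, 10.3 and 10.5 FPKM in Young-TBI. It stood at 1.91, 2.48 and 2.78 FPKM in Aged-CON and at 0.773, 0.879 and 1.69 FPKM in Aged-TBI. The 4 groups thus followed each other without overlap. Igll1 measured 25.9, 27.5 and 39.7 FPKM in Young-CON and 13.3, 14.8 and 13.4 FPKM in Young-TBI. It measured 2.72, 4.13 and 3.97 FPKM in Aged-CON and 0.853, 0.388 and 2.61 FPKM in Aged-TBI. For Igll1 too, each group lay wholly below the one before it, with 2.61 FPKM in Aged-TBI 3 just under the lowest Aged-CON value.

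Vpreb2 was the weaker copy, at 5.05, 5.39 and 5.73 FPKM in Young-CON and 0.878, 1.65 and 0.499 FPKM in Young-TBI. In Aged-CON it was at 1.34, 0.171 and 0.293 FPKM, and in Aged-TBI it was listed at 0 in sample 1 and at 0.472 and 0.757 FPKM in the others. Young controls stood apart from the other 3 groups, which overlapped one another. These are small numbers of fragments: Young-CON had 33, 29 and 33, Young-TBI 5, 10 and 3, Aged-CON 9, 1 and 2, and Aged-TBI 0, 3 and 4. Of the fragments assigned to either copy, Vpreb2 held 11.2% in Young-CON (exact binomial 95% interval 9.13 to 13.5%, 95 of 851). In Young-TBI the share was 4.96% (2.97 to 7.72%, 18 of 363), below the Young-CON interval. In Aged-CON it was 12.6% (6.70 to 21.0%, 12 of 95) and in Aged-TBI 17.1% (7.15 to 32.1%, 7 of 41), with intervals wide enough to hold the Young-CON share. The intervals pool the samples of a group and cover counting error only.

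Vpreb3 was the most abundant of the genes in all 12 samples but those of Aged-TBI 1 and Aged-TBI 2, where Dntt was higher. It read 93.6, 116 and 154 FPKM in Young-CON and 52.4, 70.4 and 59.7 FPKM in Young-TBI. In the aged groups it read 9.97, 5.36 and 12.5 FPKM (Aged-CON) and 3.33, 4.60 and 9.04 FPKM (Aged-TBI), and these 2 groups overlapped.

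The recombinase genes differed in level, with Rag1 above Rag2 in every sample, and both were lowest in aged mice. Rag1 stood at 13.9, 15.1 and 21.5 FPKM in Young-CON and at 8.20, 10.4 and 10.1 FPKM in Young-TBI. It stood at 0.910, 0.770 and 1.37 FPKM in Aged-CON and at 0.245, 0.263 and 1.25 FPKM in Aged-TBI, where sample 3 reached into the Aged-CON range. Rag2 was lower throughout, at 2.76, 3.46 and 5.54 FPKM in Young-CON and 1.73, 2.26 and 2.02 FPKM in Young-TBI. No aged sample reached 0.5 FPKM of Rag2: Aged-CON read 0.207, 0.151 and 0.371 FPKM and Aged-TBI 0.175, 0.0995 and 0.479 FPKM, from 5 to 20 fragments a sample. Rag2 was the only one of the 9 whose mean in Aged-TBI was not below that in Aged-CON, and these groups overlapped.

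Dntt and Il7r had more of their young level left in aged marrow than the other 7 genes. Dntt read 23.5, 23.1 and 26.6 FPKM in Young-CON and 12.3, 15.9 and 14.2 FPKM in Young-TBI. Its aged values were 7.74, 4.96 and 7.59 FPKM without injury and 7.21, 6.34 and 6.67 FPKM with it. Il7r read 14.8, 22.8 and 23.8 FPKM in Young-CON and 9.10, 13.8 and 11.04 FPKM in Young-TBI. Its aged values were 5.15, 4.23 and 5.62 FPKM without injury and 4.41, 4.86 and 5.51 FPKM with it. For both genes the young groups were apart from each other and from the aged groups, and the aged groups overlapped. Il7r is also used by T cells, and Dntt and the Rag genes by developing T cells of the thymus. The thymocyte gene Ptcra, which encodes the pre-T-cell receptor α chain, was listed at 0 in 7 of 12 samples and at no more than 0.210 FPKM in any.

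Myl4 was also highest in Young-CON and lowest in the aged groups. It measured 23.4, 31.0 and 43.0 FPKM in Young-CON and 10.7, 18.2 and 16.7 FPKM in Young-TBI. It measured 1.81, 0.996 and 2.28 FPKM in Aged-CON and 0.840, 1.07 and 1.10 FPKM in Aged-TBI, and the aged groups overlapped. Of other muscle genes, the atrial genes Myh6 and Myl7 and the muscle myosin Myh1 were listed at 0 in every sample, and Actc1 reached at most 0.103 FPKM. Tnnt2, too low to be tested, was also higher in young mice. It read 0.524, 0.765 and 0.952 FPKM in Young-CON and 0.541, 0.510 and 0.456 FPKM in Young-TBI. In aged mice it was listed at 0 except for 0.151 FPKM in Aged-CON 3. Acta1, also not tested, had a mean of 0.164 FPKM in Young-CON and 0.459 FPKM in Aged-CON, with overlapping values. Among the 10 muscle genes listed, Mylpf was the highest, at 6.91 to 11.5 FPKM, and neither it nor Tnnt3, the other one tested, passed the test in any comparison.

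**Figure D1:**
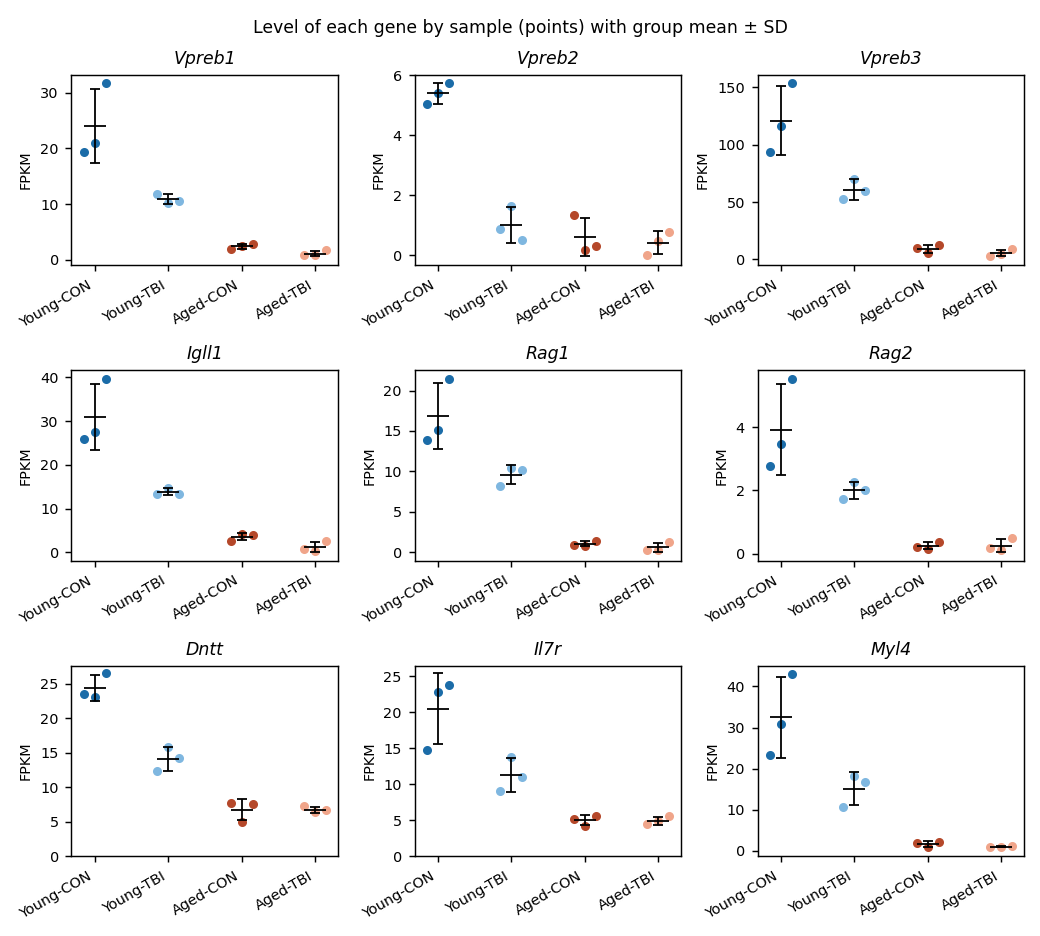
FPKM of each of the 9 genes (vertical axes, linear and different for each gene) in the 4 groups; coloured points are samples and black bars the group mean ± SD (n = 3). In every panel the Young-CON points lie above those of the other groups, and only Vpreb1 and Igll1 have all Aged-TBI points below all Aged-CON points.

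Without injury, aged marrow held far less of every one of the 9 genes. All 9 fell (limma, adjusted p from 1.03e-05 to 0.00115), where 4.19% of all genes tested fell. Young-CON and Aged-CON did not overlap for any of the 9, against 15.6% of all genes tested with Aged-CON wholly lower. Rag1 and Rag2 passed the filter on low values only with their young samples, and Vpreb2 only with Young-CON, where they were high. Their part in this and the later counts is therefore no separate support. The median change of the 9 was -2.79, beside -0.05 over all genes tested. Myl4 fell most, by 3.62 (SE 0.24, adjusted p 1.03e-05) to 5.22% of the Young-CON mean. Ordered by change among the 11767 genes, it came at place 1, Vpreb3 at place 2 (-3.61, SE 0.32, 7.67% of the Young-CON mean) and Rag1 at place 4 (-3.13, SE 0.23, 6.04%). Vpreb1 (-2.86, SE 0.19, 9.96% of the Young-CON mean) was at place 7 and Igll1 (-2.79, SE 0.29, 11.6%) at place 8. The smaller changes were those of Vpreb2 (-2.07, SE 0.29, 11.2% of the Young-CON mean), Rag2 (-1.95, SE 0.19, 6.20%), Il7r (-1.82, SE 0.18, 24.4%) and Dntt (-1.73, SE 0.14, 27.7%).

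For Rag2 and Vpreb2 the log2(FPKM + 1) scale shows only part of the difference. Counted in fragments and scaled by depth, Rag2 was 15.6 times higher in Young-CON than in Aged-CON (exact 95% counting interval 11.3 to 22.4) and Vpreb2 8.69 times (4.75 to 17.4). On recovered fragments with limma's voom weights, the log2 change of Rag2 was -3.88 and that of Rag1 -3.97, next to each other, and that of Vpreb2 was -3.31. On that scale Myl4 (-4.15), Vpreb3 (-3.64), Vpreb1 (-3.21) and Igll1 (-3.02) also lay beyond -3, while Il7r (-1.92) and Dntt (-1.78) did not.

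After injury the ages differed again, and 8 of 9 genes were lower in Aged-TBI than in Young-TBI, where 6.93% of all genes tested fell. Vpreb3 (-3.30, SE 0.32), Myl4 (-2.98, SE 0.24), Igll1 (-2.82, SE 0.29), Rag1 (-2.79, SE 0.23) and Vpreb1 (-2.51, SE 0.19) changed most, with adjusted p from 6.76e-05 to 0.000397. Rag2 fell by 1.27 (SE 0.19), Il7r by 1.04 (SE 0.18) and Dntt by 0.96 (SE 0.14). On recovered fragments with voom, Rag2 changed by -3.20 (SE 0.57) and stood with Rag1 (-4.44, SE 0.46), Myl4 (-3.78, SE 0.58), Igll1 (-3.78, SE 0.52), Vpreb3 (-3.49, SE 0.40) and Vpreb1 (-3.26, SE 0.44), apart from Il7r (-1.12, SE 0.21) and Dntt (-0.997, SE 0.14). Vpreb2 did not pass on either scale (-0.51, SE 0.29, adjusted p 0.270 by limma on FPKM, and -1.48, SE 0.82, by voom), and its groups overlapped, while those of the other 8 did not, against 26.6% of all genes tested. The median change was -2.51 for the 9 genes and -0.05 for all genes tested. The erythroid list of 10 tested genes stood higher in Aged-TBI (summed level 3702 to 3939 FPKM) than in Young-TBI (1626 to 2322 FPKM). With the erythroid level as a covariate, 6 of 9 genes were called, in a fit that called 1.21% of all genes tested, against 9.9% without it. Rag2 (-1.25, adjusted p 0.0573) and Il7r (-0.91, adjusted p 0.0948) missed the threshold with changes close to those without the covariate. The erythroid level did not overlap between these groups, so this fit cannot tell it apart from age.

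Injury in young mice went with lower levels of the 9 genes. Young-TBI lay wholly below Young-CON for 9 of 9 genes, against 15% of all genes tested. The test called 5 of them, where 3.15% of all genes tested fell. Vpreb2, which passed the filter on low values only with Young-CON, is no separate support in these counts. Vpreb2 fell by 1.71 (SE 0.29, adjusted p 0.0080), Vpreb1 by 1.05 (SE 0.19, 0.0116) and Myl4 by 1.04 (SE 0.24, 0.0317). Il7r fell by 0.79 (SE 0.18, adjusted p 0.0273) and Dntt by 0.75 (SE 0.14, 0.0118). The other genes changed by -1.08 (Igll1, SE 0.29, adjusted p 0.0516), -0.96 (Vpreb3, SE 0.32, 0.118), -0.73 (Rag1, SE 0.23, 0.0936) and -0.68 (Rag2, SE 0.19, 0.0699) and did not pass. The median change of the 9 was -0.96, beside -0.02 over all genes tested. The main fit called 5.15% of all genes tested in either direction. The count of 5 was unstable: leaving out 1 sample at a time it ran from 1 to 7. Among the controls, leaving out Young-CON 2 gave 3 (2.32% of all genes tested called) and leaving out Young-CON 3 gave 2 (1.42%). Among the injured mice, leaving out Young-TBI 1 gave 2 (1.59%), Young-TBI 3 gave 1 (Vpreb2 alone, 1.36%) and Aged-TBI 3 gave 7 (3.99%). On recovered fragments with voom it was 8 (5.62%).

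**Figure D2:**
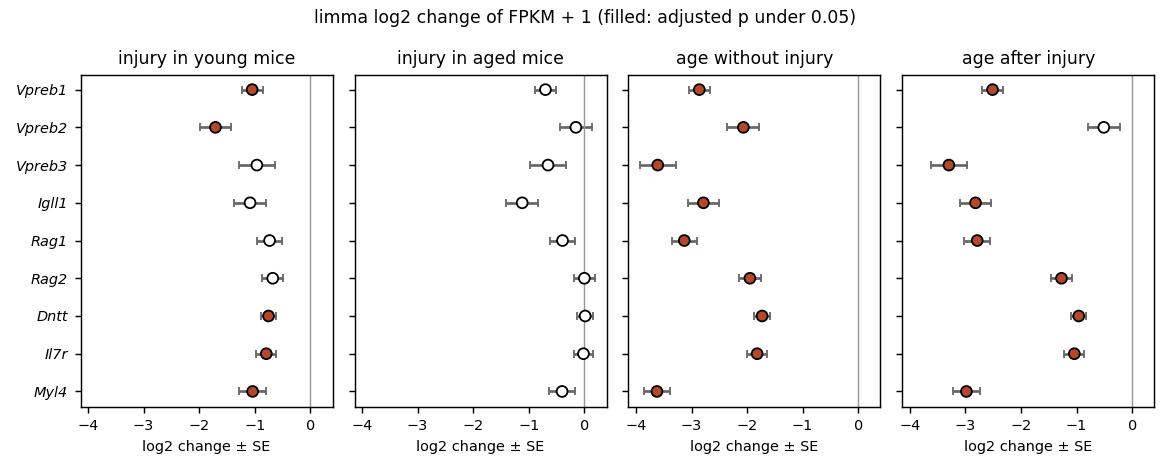
Log2 change of FPKM + 1 (horizontal axes) of the 9 genes in the 4 comparisons, with bars of ± SE from limma; filled points have an adjusted p under 0.05. All 9 points are filled for age without injury, 8 for age after injury, 5 for injury in young mice and none for injury in aged mice.

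Injury in aged mice gave no call among the 9 genes (limma, adjusted p from 0.103 to 0.999), where 0.323% of all genes tested were called. At an unadjusted p under 0.05 there were 2 of 9, Vpreb1 and Igll1, near the 23.9% of all genes tested that reached it. Voom on recovered fragments called 0. Vpreb1 changed by -0.70 (SE 0.19, adjusted p 0.110) and Igll1 by -1.12 (SE 0.29, adjusted p 0.103). These were the 2 genes with Aged-TBI wholly below Aged-CON, against 13% of all genes tested. Vpreb3 changed by -0.65 (SE 0.32), Myl4 by -0.40 (SE 0.24) and Rag1 by -0.39 (SE 0.23). Vpreb2 changed by -0.15 (SE 0.29), and Il7r (-0.01, SE 0.18), Dntt (0.02, SE 0.14) and Rag2 (0.00, SE 0.19) had changes well inside their errors. On recovered fragments with voom, without the added 1, the changes of 6 genes were larger, with larger errors: Igll1 -1.86 (SE 0.56), Rag1 -1.24 (SE 0.52), Vpreb1 -1.13 (SE 0.50), Vpreb3 -0.80 (SE 0.47), Myl4 -0.68 (SE 0.70) and Vpreb2 -0.60 (SE 0.88). Those of Rag2 (-0.19, SE 0.73), Dntt (0.02, SE 0.16) and Il7r (-0.02, SE 0.23) stayed inside their errors. Of the 10 erythroid genes tested, 9 were higher in Aged-TBI at an unadjusted p under 0.05 and none was called; their part in these values was not tested. Without Aged-CON 1, the sample of high erythroid level, Vpreb1 (adjusted p 0.0174) and Igll1 (adjusted p 0.0145) were called, 2 of 9 in a fit that called 27.8% of all genes tested. Without Aged-TBI 3, Igll1 alone was called (adjusted p 0.0204), in a fit that called 0.0935% of all genes tested.

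The difference between the aged and the young injury effect, the interaction, was called for none of the 9 genes, where 0.195% of all genes tested were called. At an unadjusted p under 0.05 there were 4 of 9, where 20% of all genes tested reached it, and voom called 0. Those 4 were Vpreb2 (1.56, SE 0.41, adjusted p 0.1001), Dntt (0.77, SE 0.20, 0.0956), Il7r (0.78, SE 0.25, 0.148) and Rag2 (0.68, SE 0.27, 0.205), positive where the aged change was the less negative. Myl4 was at 0.64 (SE 0.34). Vpreb1 (0.35), Rag1 (0.34) and Vpreb3 (0.31) had smaller values on this scale, and Igll1 was at -0.03. For genes near 1 FPKM in aged mice the scale matters. With voom Igll1 was at -0.75 (SE 0.60), Rag1 at -0.47 (SE 0.56) and Vpreb1 at -0.05 (SE 0.53). Dntt (0.78), Il7r (0.80), Vpreb2 (1.83), Rag2 (0.68), Myl4 (0.37) and Vpreb3 (0.15) stayed positive with voom. Without Aged-CON 1, Vpreb2 (adjusted p 0.0127) and Dntt (adjusted p 0.0188) passed the threshold, 2 of 9 in a fit that called 17.9% of all genes tested.

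The genes were next set against the B lineage as a whole, taken as the mean log2(FPKM + 1) of 6 pan-B genes, among them Cd79a, Cd79b and Pax5, which are used from early to mature B cells. The pan-B level of Young-CON was 5.85 ± 0.22, that of Young-TBI 4.75 ± 0.28 and that of Aged-CON 3.98 ± 0.24 while Aged-TBI had 3.6 ± 0.10 (SD, n = 3). All 6 fell with injury in young mice and with age in both conditions. Of all genes tested, 3.15% fell with injury in young mice, 4.19% with age without injury and 6.93% with age after injury. In aged mice after injury 0 of 6 passed by limma, where 0.323% of all genes tested were called, and voom called 0. At an unadjusted p under 0.05 there were 4 of 6, where 23.9% of all genes tested reached it. With the pan-B level of each sample subtracted, Myl4 stood at -1.01 to -0.59 in Young-CON and at -2.70 to -2.40 in Aged-CON. Vpreb3, the one gene above the pan-B level in young marrow, stood at 0.95 to 1.22 in Young-CON and -1.03 to -0.35 in Aged-CON. Neither gene's groups overlapped.

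A limma fit of these relative levels, added after the data had been seen, called 5 of the 9 genes lower in Aged-CON than in Young-CON beyond the pan-B fall. Only 0.102% of all genes tested (12 genes) were lower on this measure, and nearly all others were higher, as their values were set against a reference that fell. Where nearly all genes differ, the adjustment hardly raises a p near the threshold, and every gene shares the error of the subtracted level. The 5 were Myl4 (-1.75, SE 0.19), Vpreb3 (-1.73, SE 0.22), Rag1 (-1.26, SE 0.21), Vpreb1 (-0.99, SE 0.21) and Igll1 (-0.91, SE 0.24). Dntt (0.14, SE 0.19) and Il7r (0.05, SE 0.18) did not differ from the pan-B fall beyond their errors. Vpreb2 (-0.19, SE 0.25) and Rag2 (-0.08, SE 0.24) did not pass either, but both are compressed by the scale. With voom, Rag2 was lower relative to the pan-B genes (-1.98, SE 0.53, adjusted p 0.00206), and Vpreb2 was not called (-1.41, SE 0.81, adjusted p 0.106).

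After injury the relative fit called Vpreb3 (-2.15, SE 0.22), Myl4 (-1.84, SE 0.19), Igll1 (-1.67, SE 0.24), Rag1 (-1.64, SE 0.21) and Vpreb1 (-1.36, SE 0.21) lower in Aged-TBI than in Young-TBI, 5 of 9 where 0.204% of all genes tested were lower. Vpreb2 was higher on this measure (0.64, SE 0.25, adjusted p 0.0161), as were most of the 97.4% of all genes tested that differed, a direction that turned with voom (-0.25, SE 1.06). Rag2 was not called in the relative limma fit (-0.12, SE 0.24) but was lower with voom (-1.97, SE 0.58, adjusted p 0.00482). For injury in young mice, 1 of the 9 was lower than the pan-B fall, Vpreb2 (-0.60, SE 0.25, adjusted p 0.0225), where 0.034% of all genes tested were. Its unadjusted p in this limma fit was 0.0217, so the adjustment hardly changed it. Vpreb2 passed the filter on low values only with its Young-CON samples, so this call is no separate support. The other 8 had relative changes between 0.02 and 0.43, none called. For injury in aged mice, Igll1 was lower (-0.74, SE 0.24, adjusted p 0.0332), 1 of 9 where 0.246% of all genes tested were. Its groups overlapped on this measure, at -2.23 to -1.34 in Aged-CON and -3.09 to -1.86 in Aged-TBI. The Aged-TBI samples held 10, 5 and 28 fragments of Igll1, and this relative change was not checked with voom.

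**Figure D3:**
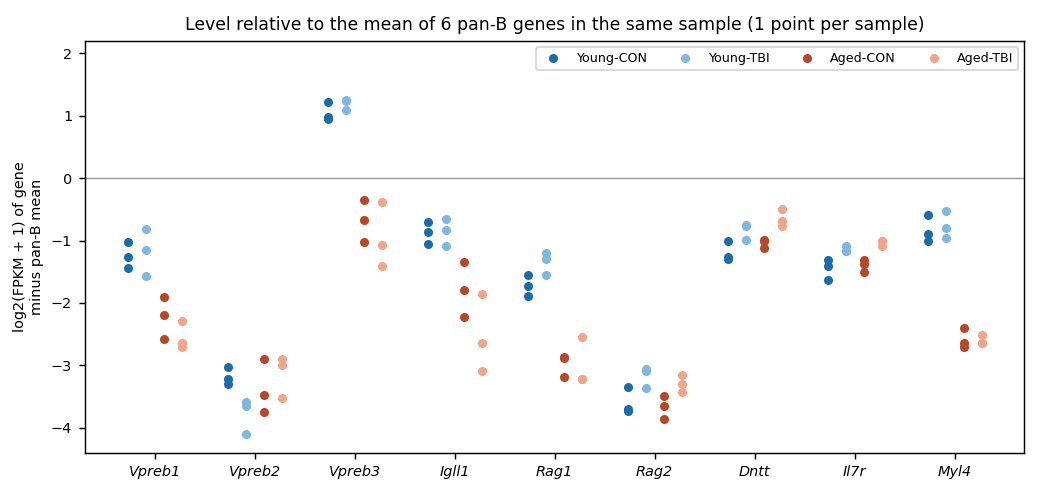
Log2(FPKM + 1) of each gene minus the mean of the 6 pan-B genes in the same sample (vertical axis), 1 point per sample, coloured by group. Vpreb1, Vpreb3, Igll1, Rag1 and Myl4 lie lower in all aged samples than in all young ones, while Dntt and Il7r lie near the same height in Young-CON and Aged-CON.

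Genes of the surrounding pathways were counted by list. For comparison with each list, 4.19% of all genes tested fell with age without injury and 3.15% with injury in young mice. Of 17 early B transcription factors, 14 fell with age without injury (median -1.19) and 11 with injury in young mice (median -0.74). With age, Spib fell by 2.41 (SE 0.15, adjusted p 8.78e-06), Bach2 by 2.05 (SE 0.15), Sox4 by 1.53 (SE 0.11) and Ebf1, which starts the B-lineage programme, by 2.09 (SE 0.17). Spib and Bach2 encode regulators of B-cell differentiation, and Sox4 is needed for early B progenitors. Of 12 genes of pre-B receptor signalling, 8 fell with age and 7 with injury in young mice, among them the signalling chains Cd79a and Cd79b and the adaptor Blnk with age.

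Most other genes of the recombination machinery did not pass the test. Of 14 genes of recombination and end joining, 3 fell with age without injury (median -0.15): the polymerase gene Polm (-1.03, SE 0.13), the ligase gene Lig4 (-1.01, SE 0.13) and the DNA-end binding gene Xrcc6 (-0.96, SE 0.12). With injury in young mice 1 fell, Polm (-0.50, SE 0.13, adjusted p 0.0460). Of 11 genes of interleukin-7 signalling other than Il7r, 0 were called by limma in any of the 4 group comparisons. At an unadjusted p under 0.05 there were 4 of them with injury in young mice, 5 with injury in aged mice, 1 with age without injury and 3 with age after injury, where 20.1%, 23.9%, 19.2% and 28.6% of all genes tested reached it. Voom on recovered fragments called 1 with injury in young mice, 1 with age after injury and 0 in the other comparisons. Il7 itself was read at no more than 0.355 FPKM and was not tested. Of 9 early B surface markers, 4 fell with age (Ly6d by 1.55, Cd38 by 1.25, Cd2 by 0.67 and Cd93 by 0.51).

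Later B cells and T cells give the other sources of lymphoid RNA in marrow. Of 10 mature B genes, 9 fell with injury in young mice (median -1.27), among them Fcmr by 1.59, Cxcr5 by 1.32, Ms4a1 by 1.29 and Ccr6 by 1.25. With age without injury 4 fell (Tnfrsf13c, Ms4a1, Fcmr and Cd22; median -0.47). After injury 5 of the 10 were higher and 3 lower in the aged mice (median 0.45), where 9.9% of all genes tested were called in either direction. Of 9 tested T cell genes, 7 fell with injury in young mice (median -0.74), and their summed level went from 54.8 to 56.2 FPKM in Young-CON to 26.2 to 36.6 FPKM in Young-TBI. Their part in the fall of Il7r was not tested. With age without injury the T cell sum was 42.1 to 59.6 FPKM in Aged-CON and 1 T cell gene fell, Cd4 (-0.62, SE 0.08).

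**Figure D4:**
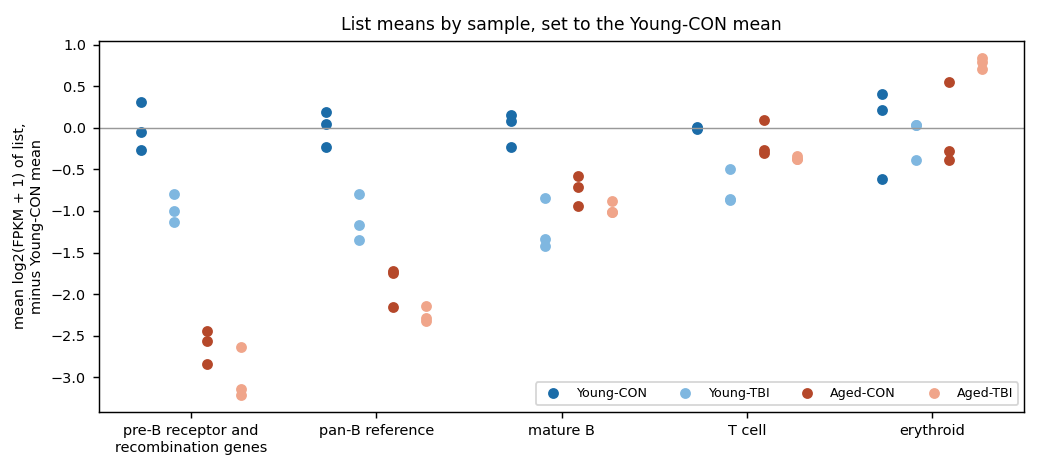
Mean log2(FPKM + 1) of each gene list per sample minus the Young-CON mean of that list (vertical axis), 1 point per sample, coloured by group. The 9 genes lie between -2.84 and -2.45 in Aged-CON, the pan-B genes between -2.15 and -1.73 and the mature B genes between -0.94 and -0.58.

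The 9 genes also varied together within groups, less closely in Aged-CON. Young-CON 3 was the highest of its group for 9 of 9 genes and Young-CON 1 the lowest for 8, and the pan-B level had the same order (5.62 in sample 1, 5.89 in sample 2 and 6.05 in sample 3). Young-TBI 2 was the highest of its group for 8 genes and Young-TBI 1 the lowest for 7, again as in the pan-B level (5.06 and 4.50). Aged-TBI 3 was the highest of its group for 8 genes. Aged-CON 3 was the highest of its group for 6 genes and Aged-CON 2 the lowest for 7. The pan-B level was lowest in Aged-CON 2 (3.70) but highest in Aged-CON 1 (4.13), where Vpreb1 and Igll1 were lowest. The members of a sample share its library and its depth. Across the 12 samples the correlation of each gene with the mean of the others, a description that the group differences dominate, ran from 0.842 for Vpreb2 to 0.987 for Myl4.

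Outside the 9, the genes most alike in pattern were ranked by Pearson r over the 12 samples with the mean of the 9 standardized log2 levels, among 8473 genes with a mean of at least 5 FPKM. They were Arl5c (r = 0.995, Spearman's rho 0.979), Spib (0.995, 0.979), Akap12 (0.994, 0.993), Ebf1 (0.994, 0.993), Bach2 (0.992, 0.965), Dpp4 (0.992, 0.965), Pafah1b3 (0.991, 0.972) and Pgls (0.990, 0.993). The 12 points share the 4 groups, so these values describe mostly the steps between groups. The sizes of the steps differ: the Young-CON mean of Akap12 was 13.6 ± 3.25 FPKM and its Aged-CON mean 0.997 ± 0.315 FPKM (SD, n = 3), while those of Pgls were 94.7 ± 3.16 and 64.3 ± 2.69 FPKM.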

How the data were processed

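Per the labels' protocols, marrow RNA was taken with TRIzol and libraries with a SMARTER mRNA kit. The authors deposited FPKM per gene symbol for all 12 samples. GRCm38, mm10 and R 4.3.3 are named in the submitters' processing notes. The sources used here do not give the aligner, counting tool or annotation. FPKM are relative, so a rise of abundant genes lowers the others. The 9 genes and all gene lists were chosen with earlier results of these data known.

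The 11767 genes that reached 1 FPKM in 3 or more of 12 samples were fitted on the log2(FPKM + 1) scale by limma 3.58.1 (R 4.3.3), using group means, a variance trend, two-sided tests and Benjamini-Hochberg adjustment over all genes tested. The steps of the low FPKM values gave whole fragments, within a tolerance of 0.05, for 99.97% of the tested genes, and these were used for voom and for exact counting intervals, which cover counting error only. The fit was tested on simulated data. Alternatives changed the scaling, pseudocount, filter, spread model, covariates and samples. In each list, up to 4 genes with the smallest p per comparison were named, and the 8 genes most alike in pattern; a few others were named after their values were seen. Deviations of samples sharing a number were at most weakly correlated (-0.22 to 0.29), and numbers were not used as pairs. The highest values were those of the controls numbered 1 (0.29) and 2 (0.23). Samples with unlike numbers were not compared in this way. Some listed genes are not reported here by name.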

Additional observations from a re-analysis of the deposited data

How the results depend on the processing

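Over 23 alternatives, 9 of 9 genes were called for age without injury each time. For age after injury 8 were called, except 6 with the erythroid covariate. For injury in young mice the count of 5 became 3 with a pseudocount of 0.1 and 3 with no filter on low values. These fits called 4.67% and 2.65% of their genes. The count became 8 with voom, 9 with weights per sample and 3 when Young-CON 2 and Aged-CON 1 were both left out. Of all genes tested, these fits called 5.62%, 13.6% and 7.67%. With the replicate number as a block it was 8 (4.01% of all genes tested called), though the numbers were not taken to pair the samples. Leaving out 1 sample at a time gave 1 to 7. For injury in aged mice the count of 0 became 2 with weights and 2 without both samples, fits that called 30.2% and 30% of all genes tested, and 0 to 2 with 1 sample left out. For the interaction it became 4 with weights and 2 without both, where 25.3% and 25.9% of all genes tested were called, and 0 to 2 with 1 left out. The cause of these shifts was not tested. Relative to the pan-B genes, 5 to 7 genes were lower with age without injury and 5 or 6 after injury.

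Changes near 0 turned sign. With quantile normalization Il7r in aged injury was 0.0077 and the Igll1 interaction 0.011. With a pseudocount of 0.1 Rag2 in aged injury was -0.065 and the Rag1 interaction -0.19. With voom Rag2 in aged injury was -0.19, and the interactions of Vpreb1 and Rag1 were -0.047 and -0.47. With the erythroid covariate, aged injury gave -0.10 for Dntt and 0.11 for Il7r, and the Igll1 interaction was 0.11. Weights gave 0.013 for Vpreb2 and -0.022 for Rag2 in aged injury. Without both samples, aged injury gave 0.16 for Vpreb2, -0.018 for Rag2 and 0.0072 for Il7r. With 1 sample left out, aged injury ran from -0.34 to 0.16 for Vpreb2, -0.13 to 0.089 for Rag2, -0.11 to 0.060 for Il7r and -0.16 to 0.11 for Dntt. The interaction ran from -0.42 to 0.27 for Igll1 and -0.033 to 0.57 for Vpreb3. None of these results was called in the main analysis. In the aged groups Vpreb2 rests on 0 to 9 fragments a sample and Rag2 on 5 to 20, which limits both.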
